A study of Mus musculus with 15 samples.

Results

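These are the stretches of the mouse genome that were called open in bone marrow-derived eosinophils of BALB/c mice and not in those of C57 mice. Peaks of 4 ATAC-seq lists were merged wherever they shared at least 1 bp, which gave 49646 regions. The members were selected on these calls: a region was taken when it held a peak of both BALB/c libraries and of neither C57 library. This left 1556 BALB/c-only regions, 3.13% of all merged regions. Regions with a peak in all 4 lists numbered 23392, and 2564 were C57-only by the same rule with the strains exchanged. A further 2383 held peaks of both BALB/c libraries and 1 C57 library.

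By the labels, both strains were cultured alike. Unselected bone marrow cells of BALB/c mice, and of mice titled C57 with the strain label BL6/57, were cultured for 14 days. They received stem cell factor and FLT3 ligand at 100 ng/mL each on days 0 to 3 and 10 ng/mL of interleukin 5, which drives eosinophil growth, on days 4 to 14. Open chromatin (ATAC-seq) and the histone mark H3K27ac were mapped in 2 libraries per strain, and H3K4me3 and H3K4me1 in 2 libraries and PU.1 in 1 library of BALB/c cells only. Whether libraries of 1 strain stem from separate cultures or mice is not given, so their spread may be technical alone. A region with no peak can hold fewer open cells or less signal per cell, and these cannot be told apart.

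ATAC-seq marks DNA that a transposase can reach, as at promoters and enhancers that are free of nucleosomes. H3K27ac is a histone acetylation of active promoters and enhancers, H3K4me3 sits at active promoters and H3K4me1 at enhancers. PU.1 is an ETS family transcription factor that opens and holds enhancers in granulocytes and macrophages. A region open in 1 strain of eosinophils can be set against other myeloid cells: H3K27ac or PU.1 there shows that the stretch is marked or bound in some cell. For this, 6 peak lists of other cells, deposited beside the eosinophil lists and taken from earlier studies, were used. They give H3K27ac and PU.1 in neutrophils (named Neut), in macrophages (named mBMDM) and in cells named ImmGran, a name kept here as it stands. The strain of those cells is not given in the sources used here.

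The ATAC lists held 33919 and 33949 peaks in BALB/c and 36244 and 36768 in C57. H3K27ac gave 20467 and 23203 peaks in BALB/c, against 14992 and 27527 in C57, so the C57 acetylation lists differ from each other more than the BALB/c lists do. The outside lists ran from 21838 peaks (neutrophil H3K27ac) to 135034 (macrophage PU.1). The read depth behind the lists is unknown. In BALB/c RNA all 11 eosinophil marker genes were at 1 CPM (read counts scaled to the library total) or more in both libraries, summing to 13837 and 14145 CPM. So were 9 of 9 neutrophil markers (1634 and 1385 CPM in sum) and 7 of 8 macrophage markers, with Marco at 0 (3644 and 4028 CPM in sum). In those libraries 3 of 4 fibroblast markers were detected (2013 and 522 CPM in sum). No RNA of C57 cells was analysed here, so the share of other cells in the 2 strains' cultures was not tested.

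The BALB/c-only regions were narrow, modest peaks. Their median fold enrichment over background, the authors' own value, was 4.19 in BALB/c replicate 1 and 3.98 in replicate 2, while regions in all 4 lists had medians of 5.41 and 5.20 in the same libraries. The median merged width was 358 bp for BALB/c-only regions, 717 bp for regions in all 4 lists and 295 bp for C57-only regions. These values come from the calls that chose the regions and are given as a description. Members just inside the limit included chr17:12934114-12934689 (mm9), with a −log10 q of 1.00 in BALB/c replicate 2. Just outside lay chr11:5456396-5456668, which had a fold of 3.84 and 3.39 in the BALB/c libraries and was lost to a C57 replicate 1 peak with a −log10 q of 1.02. Raising the demand on the BALB/c peaks alone to a −log10 q of 3 left 375 members.

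**Figure D1:**
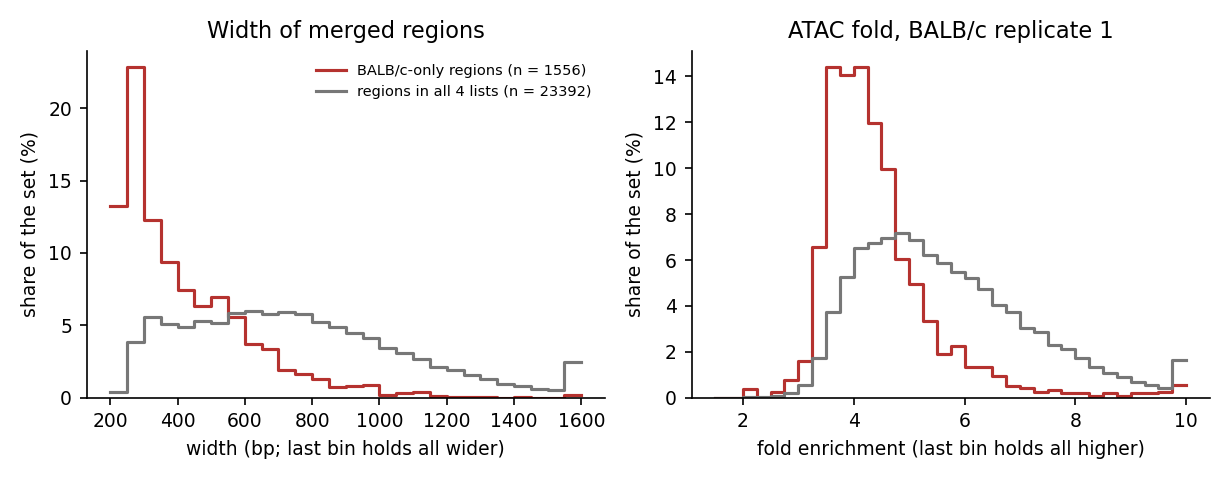
Width of the merged region in bp (left) and fold enrichment of the ATAC peak in BALB/c replicate 1 (right), as the share of BALB/c-only regions (red) and of regions in all 4 lists (grey) in each bin. BALB/c-only regions pile up below 400 bp and near a fold of 4, with medians of 358 bp and 4.19, while regions in all 4 lists spread to 717 bp and 5.41 at the median.

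The strongest members stood well above these medians. By the lower of the 2 BALB/c scores, the leading region was chr14:46432431-46432660, a stretch of 230 bp with ATAC folds of 14.6 and 13.3 in the BALB/c libraries and no C57 peak within 145251 bp. The next were chrX:141949452-141949676 with 11.6 and 11.5, chr10:121200176-121200457 with 12.7 and 10.6 and chr3:87228935-87229239 with 11.2 and 10.2. All 4 had H3K27ac and H3K4me3 peaks in BALB/c replicate 1 and none in replicate 2, and all 4 held a macrophage PU.1 peak. At chr14:46432431-46432660 the folds in replicate 1 were 8.05 for H3K27ac and 11.5 for H3K4me3. Across the 17 members whose lower score was at least 100, 6 had H3K27ac in replicate 1 only, 0 in replicate 2 only and 6 in both. Across all 1556 members the counts were 83 in replicate 1 only, 145 in replicate 2 only and 320 in both. The fifth by score, chr1_random:272437-272978, held H3K27ac in all 4 libraries, with folds of 5.61 and 6.19 in BALB/c and 4.00 and 4.53 in C57.

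H3K27ac, which the rule did not use, was called at more of these regions in the BALB/c libraries than in the C57 libraries. In the BALB/c libraries 25.9% of BALB/c-only regions held an H3K27ac peak in replicate 1 and 29.9% in replicate 2. In the C57 libraries the shares were 6.36% in replicate 1 and 24.0% in replicate 2. Every C57 share was below every BALB/c share, but C57 replicate 2 came close, and it had the longest acetylation list. Since regions in all 4 lists were wider, shares were compared within 5 strata of merged width, cut at the quintiles of the BALB/c-only regions. Weighted to those widths, regions in all 4 lists held H3K27ac in 30.2% and 35.1% (BALB/c replicates 1 and 2) and in 23.2% and 41.0% (C57 replicates 1 and 2).

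Within a library, the odds of acetylation at BALB/c-only regions were set against those at regions in all 4 lists. This ratio can still move with list length. With mark peaks of −log10 q 5 or more, the ratio for peaks in both libraries went from 0.568 to 0.335 in BALB/c. In C57 it went from 0.182 to 0.0646. How far list length bears on the strain difference was not tested. Per library, the odds ratio was 0.696 and 0.693 in the BALB/c libraries and 0.181 and 0.366 in the C57 libraries. The lower C57 value came from the shorter list. On the natural log scale the mean was -0.36 in BALB/c and -1.36 in C57, a difference of 0.99, or an odds ratio 2.70 times as high in BALB/c. An exact permutation test over the 4 libraries, two-sided, gave p = 0.33, the smallest that 2 libraries against 2 allow. Without C57 H3K27ac replicate 1, whose list was the shortest, the difference was 0.64, and without C57 ATAC replicate 2 it was 0.62.

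Region by region, 320 BALB/c-only regions (20.6%, 95% Wilson interval 18.6 to 22.6%) held H3K27ac in both BALB/c libraries, where the share over all merged regions was 33.6%. In both C57 libraries 97 held it (6.23%, 5.14 to 7.55%), against 28.6% of all merged regions. Intervals here cover counting error only. Against regions in all 4 lists, the odds ratio of BALB/c acetylation was 0.568 (95% interval 0.495 to 0.652, adjusted p = 4.79e-19, two-sided Cochran-Mantel-Haenszel chi-square test over width strata, Benjamini-Hochberg over 6 marks). The odds ratio of C57 acetylation was 0.182 (0.148 to 0.224, chi-square adjusted p = 8.21e-87), and 0.366 where C57 H3K27ac replicate 1 was left out. With members chosen without BALB/c ATAC replicate 1, the odds ratio of BALB/c acetylation was also 0.366. These tests run over regions, which are not independent where they neighbour each other, and hold no spread between libraries.

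Acetylation that was itself called in BALB/c and not in C57 was more frequent at these regions than elsewhere. In all, 130 BALB/c-only regions (8.35%) held H3K27ac in both BALB/c and neither C57 library, where 1.62% of all merged regions did. Among regions in all 4 lists the share was 1.52% at the same widths (odds ratio 6.58, 5.18 to 8.36, chi-square adjusted p = 1.72e-81). Without C57 H3K27ac replicate 2 the odds ratio was 2.18, and without C57 ATAC replicate 2 it was 4.11, both above 1 with adjusted p under 0.05. It was 3.30 with mark peaks of −log10 q 5 or more and 12.1 with BALB/c ATAC peaks held to 3. The opposite pattern, H3K27ac in both C57 and neither BALB/c library, was found at 9 BALB/c-only regions (0.578%), where 1.51% of all merged regions had it. Of the others, 115 members held H3K27ac in both BALB/c and 1 C57 library, 75 in all 4 lists, 898 in none and 329 in another combination. These classes made up 7.39%, 4.82%, 57.7% and 21.1% of members. Among regions in all 4 ATAC lists they made up 9.06%, 49.8%, 23.2% and 15.4%, not matched on width. H3K27ac in both BALB/c and neither C57 library was found at 3.44% of regions called in both BALB/c and 1 C57 ATAC list. This share lay between that of the BALB/c-only regions and that of regions in all 4 lists.

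Of these 130 regions, chr17:4626121-4626626 had the highest ATAC fold in BALB/c replicate 1 among the 5 with the strongest acetylation, with 15.9 against 5.44 in replicate 2. Its H3K27ac folds were 8.89 and 9.01. It also held neutrophil H3K27ac and PU.1 peaks, with folds of 5.15 and 11.2. At chr17:24479707-24480044 the H3K27ac folds were 8.24 and 9.25, with ATAC folds of 8.65 and 9.57. That stretch held eosinophil PU.1 at a fold of 17.0, H3K4me1 at 9.77 and 9.27, and ImmGran peaks of both H3K27ac and PU.1, and none of the neutrophil and macrophage lists reached it. At chr3:86714171-86714611 H3K27ac (7.29 and 7.57), H3K4me1 (6.64 and 6.82) and PU.1 (10.6) were present in BALB/c eosinophils and no outside list had a peak. The remaining 2, chr17:22302340-22302656 and chr11:28239655-28239872, carried H3K4me3 in both libraries and H3K27ac in macrophages.

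The 97 members acetylated in both C57 libraries had no C57 ATAC peak, by the rule. In either C57 library 376 members held H3K27ac (24.2%), of which 374 in replicate 2, against 41.4% of regions in all 4 lists at the same widths. At chr6:117666474-117666861 H3K27ac had folds of 5.28 and 7.0 in the BALB/c libraries and 6.88 and 8.91 in the C57 libraries. Its ATAC folds in BALB/c were 3.99 and 3.40, below the medians of the set. H3K27ac was also called there in neutrophils, macrophages and ImmGran cells. At chr13:24025609-24025858 the BALB/c folds were 5.06 and 5.07, the C57 folds 4.32 and 11.3, and the macrophage fold was 13.1. Both regions carried H3K4me3 in both BALB/c libraries and had no PU.1 peak in any list. The third, chr16:45353038-45353286, had BALB/c folds of 4.8 and 4.79, C57 folds of 4.79 and 8.65, and eosinophil PU.1 at 17.7.

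PU.1 was called at many of the regions in BALB/c eosinophils. A PU.1 peak lay in 760 of them (48.8%, 46.4 to 51.3%), against 61.8% of all merged regions and 63.5% of regions in all 4 lists at the same widths. The odds ratio was 0.473 (0.421 to 0.531, adjusted p = 9.76e-42, Cochran-Mantel-Haenszel chi-square test). In the narrowest stratum, up to 264 bp, the shares were 35.3% of BALB/c-only regions and 36.4% of regions in all 4 lists. In the widest stratum, from 564 bp up, they were 59.6% and 89.3%. There the members reached 2023 bp and regions in all 4 lists 5834 bp. No C57 PU.1 list was analysed here, so the strains could not be compared for PU.1.

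Over all widths together, the methylation marks gave no stable difference. H3K4me3 in both libraries was found at 390 BALB/c-only regions (25.1%), where 33.7% of all merged regions and 27% of regions in all 4 lists at the same widths had it. The odds ratio of 0.818 (0.716 to 0.935, chi-square adjusted p = 0.0016) moved to 0.978 with 50 width strata and to 1.24 with strata of width and ATAC score, where the adjusted p was 0.00278 in the other direction. H3K4me1 in both libraries was found at 249 (16.0%), where 13.8% of all merged regions and 15.2% of regions in all 4 lists had it (odds ratio 1.10, 0.952 to 1.28, chi-square adjusted p = 0.188). Members were sorted by marks called in both BALB/c libraries, so a mark called in 1 library alone counted as absent. By this rule 390 members carried H3K4me3. A further 173 had H3K27ac but no H3K4me3, 134 had only H3K4me1 of these 3 marks, and 859 had none of the 3 in both libraries. The last 3 classes made up 11.1%, 8.61% and 55.2% of members. Among regions in all 4 lists at the same widths they made up 10.5%, 8.02% and 54.5%, which is close to the members' own shares. These shares average over width strata in which the marks differed in both directions. H3K4me3 was found at 26.1% of members and 15.8% of regions in all 4 lists from 316 to 415 bp. In the widest stratum the shares were 45.0% and 75.4%. For H3K4me1 they were 6.62% and 8.91% in the narrowest stratum and 26.7% and 17.0% in the widest. Eosinophil PU.1 was found at 46.9%, 74.0%, 71.6% and 41.1% of members in the mark classes, in the order given above. Among regions in all 4 lists the shares were higher in each class, at 86.7%, 93.6%, 87.3% and 63.1%, not matched on width.

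**Figure D2:**
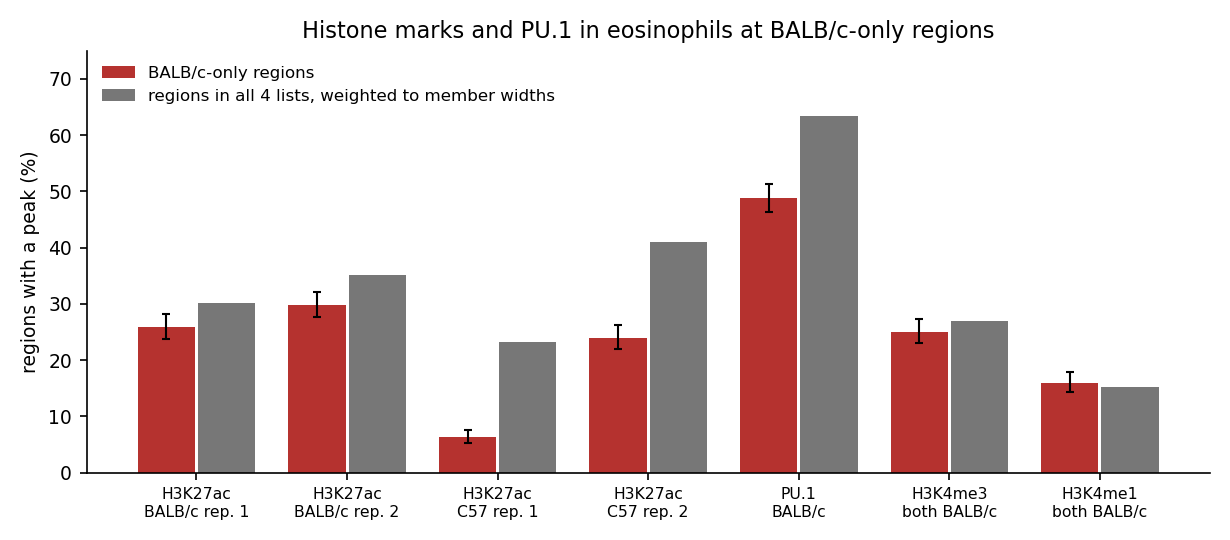
Share of regions with a peak (%) in each H3K27ac library, in the PU.1 library and in both H3K4me3 or both H3K4me1 libraries of eosinophils. Red bars are BALB/c-only regions with 95% Wilson intervals and grey bars regions in all 4 lists weighted to the widths of the BALB/c-only regions. The gaps in the C57 H3K27ac libraries, 6.36% against 23.2% and 24.0% against 41.0%, are wider than those in the BALB/c H3K27ac libraries.

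The gap to regions in all 4 lists was not the same at every width. In the narrowest stratum 7.89% of BALB/c-only regions and 6.07% of regions in all 4 lists held H3K27ac in both BALB/c libraries. From 316 to 415 bp the shares were 18.9% and 15.5%, and from 564 bp up they were 34.9% and 77.2%. BALB/c-only regions were thus above at narrow widths and below at wide ones, and the odds ratio of 0.568 averages over both. Within the widest stratum regions in all 4 lists were still the wider ones, and 50 strata gave 0.668. With 25 strata of width and ATAC score the odds ratio was 0.831 (chi-square adjusted p = 0.0105).

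Over all widths together, the regions were acetylated and bound in the outside cells less often than regions in all 4 lists. Neutrophil H3K27ac was found at 272 BALB/c-only regions (17.5%), where 35.6% of all merged regions and 32.2% of regions in all 4 lists at the same widths held it. Macrophage H3K27ac was found at 514 (33.0%, against 52.6% of all merged regions and 46.7% at the same widths). ImmGran H3K27ac was found at 373 (24.0%, against 37.1% and 30.7%). The odds ratios were 0.385 in neutrophils (adjusted p = 1.09e-47), 0.478 in macrophages (2.36e-41) and 0.634 in ImmGran cells (2.38e-14), by Cochran-Mantel-Haenszel chi-square tests adjusted over 6 lists. With 50 width strata they were 0.431, 0.520 and 0.716.

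PU.1 in the outside cells was lower as well. Macrophage PU.1 was found at 712 BALB/c-only regions (45.8%), where 65.0% of all merged regions and 68.1% of regions in all 4 lists at the same widths held it. Neutrophil PU.1 was found at 535 (34.4%, against 53.8% and 57.0%) and ImmGran PU.1 at 385 (24.7%, against 35.2% and 37.0%). The odds ratios were 0.360 (adjusted p = 1.54e-77), 0.366 (3.40e-71) and 0.512 (9.68e-27), by the same chi-square test. With 50 width strata they were 0.382, 0.374 and 0.535. Unlike the acetylation lists, macrophage and neutrophil PU.1 lay below regions in all 4 lists in each of the 5 width strata. In the narrowest, the shares were 39.1% and 52.6% for macrophage PU.1 and 28.4% and 40.5% for neutrophil PU.1. ImmGran PU.1 was nearly level there, with 24.0% and 23.5%, and lay below regions in all 4 lists in the wider strata. Neutrophil H3K27ac was above regions in all 4 lists in the 2 narrowest strata (12.9% and 11.3%, then 17.1% and 14.9%), and macrophage H3K27ac in the narrowest (25.2% and 20.6%). ImmGran H3K27ac was above them in the 3 narrowest strata, with 28.0% and 20.4% from 316 to 415 bp, and below them in the widest, with 30.9% and 74.0%.

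**Figure D3:**
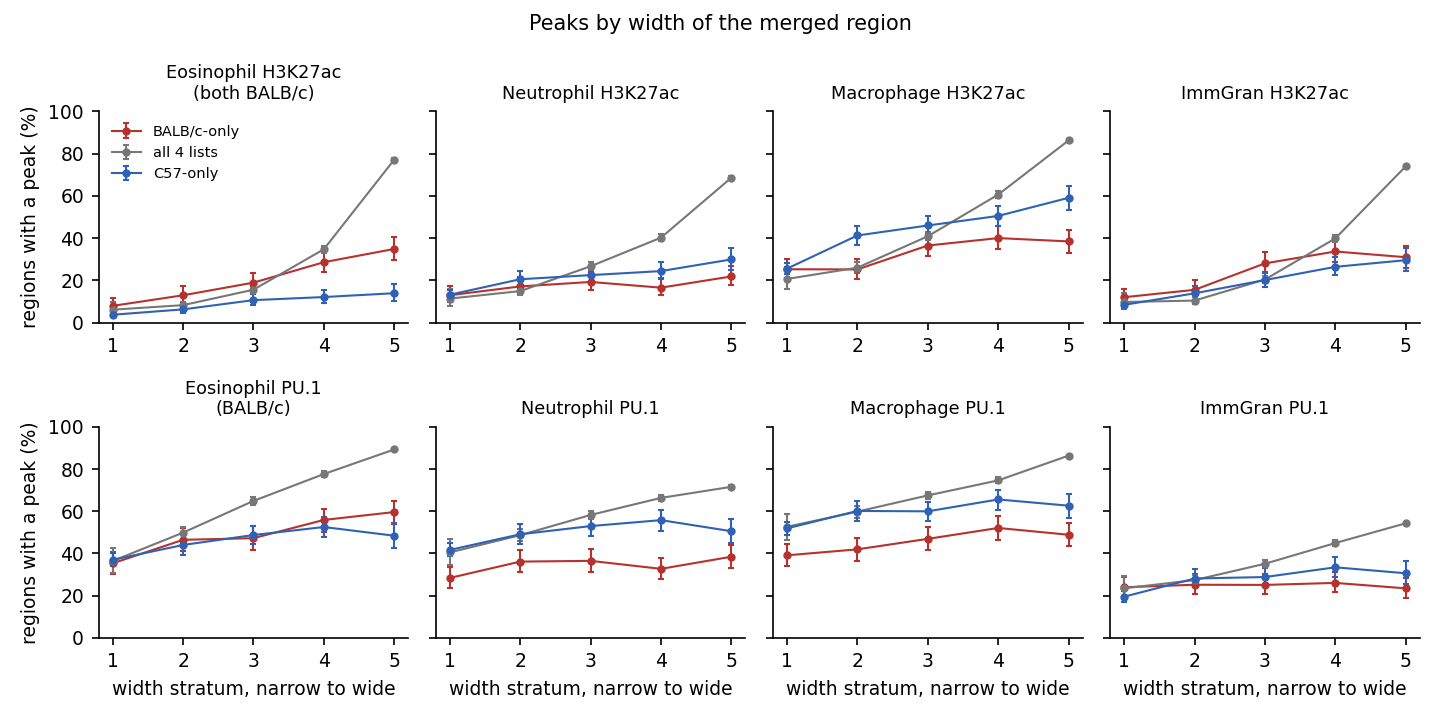
Share of regions with a peak (%, with 95% Wilson intervals) in 5 strata of merged width. Panels show H3K27ac (top) and PU.1 (bottom) in eosinophils and in the outside cells. The strata run from at most 264 bp (1) to at least 564 bp (5). Lines are BALB/c-only regions (red), regions in all 4 lists (grey) and C57-only regions (blue). Neutrophil and macrophage PU.1 run below both other sets at every width, while the H3K27ac lines of BALB/c-only regions and regions in all 4 lists part mainly in the 2 widest strata.

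Some other cell type was marked at many of the regions, though at fewer than in the comparison set. At least 1 outside H3K27ac list held 712 of them (45.8%), against 54.0% of regions in all 4 lists at the same widths. At least 1 outside PU.1 list held 870 (55.9%, against 74.8%), and 244 had PU.1 in all 3 outside cell types (15.7%, against 32.8%). No outside list of either kind reached 506 (32.5%), against 19.0% of regions in all 4 lists and 24.8% of C57-only regions at the same widths. All 6 lists reached 50 (3.21%), against 12.3% of regions in all 4 lists. An example of PU.1 in all 3, chr16:20014054-20014553, had PU.1 folds of 25.3 in neutrophils, 18.6 in macrophages, 22.9 in ImmGran cells and 10.9 in BALB/c eosinophils. At chr5:75738667-75738951 the folds were 29.7, 19.7, 16.2 and 7.07. The ATAC folds at these 2 places, 4.53 and 5.39 and then 4.09 and 4.19, were ordinary for the set.

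Other regions had PU.1 in BALB/c eosinophils alone. There were 154 with eosinophil PU.1 and no outside PU.1 peak (9.90%), where 5.24% of all merged regions and 4.61% of regions in all 4 lists at the same widths were of this kind. The reverse held for 264 (17.0%, against 14.7% and 15.9%). These shares were not tested. The highest of the first kind was chr6:43864863-43865131, with a PU.1 fold of 18.0, ATAC folds of 9.02 and 10.4, no histone mark in any library and no outside peak. At chr5:93914829-93915086 the PU.1 fold was 14.8, with H3K27ac in BALB/c replicate 2 only. No list other than ATAC reached 224 members (14.4%), against 13.1% of all merged regions and 12.2% of regions in all 4 lists at the same widths.

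Marks in eosinophils and in the other cells went together within the set. Of the 320 members with H3K27ac in both BALB/c libraries, 236 (73.8%) were acetylated in at least 1 outside cell type, against 476 (38.5%) of the 1236 others. The odds ratio was 3.70 (adjusted p = 2.09e-22, Cochran-Mantel-Haenszel chi-square test over width strata, adjusted over 2 tests). Of the 760 members with eosinophil PU.1, 606 (79.7%) held outside PU.1, against 264 (33.2%) of the 796 without it (odds ratio 7.87, chi-square adjusted p = 1.46e-74). With BALB/c ATAC peaks held to a −log10 q of 3 the PU.1 odds ratio was 3.76, and with mark peaks of −log10 q 5 or more the H3K27ac odds ratio was 5.65.

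Regions with acetylation in BALB/c and not in C57 eosinophils were raised mainly for ImmGran acetylation, and not for that of macrophages. Of the 130, 86 (66.2%, 57.7 to 73.7%) were acetylated in an outside cell type, where 45.8% of all members were. In ImmGran cells 70 were acetylated (53.8%, against 24.0% of all members). In macrophages 41 were (31.5%, against 33.0%) and in neutrophils 28 (21.5%, against 17.5%). Of the 75 acetylated in all 4 eosinophil lists, 66 (88.0%, 78.7 to 93.6%) had an outside peak, with 50 in ImmGran cells, 56 in macrophages and 45 in neutrophils. Among the 282 regions in all 4 ATAC lists with H3K27ac in BALB/c and not in C57 the share with an outside peak was 76.2%. In ImmGran cells, macrophages and neutrophils it was 42.6%, 61.7% and 34.0%, not matched on width. Among the 898 members without eosinophil H3K27ac 31.3% had an outside peak. PU.1 was found in eosinophils at 102 of the 130 (78.5%) and at 48 of the 75 (64.0%). The difference between the 130 and the 75 was not tested.

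The C57-only regions, chosen in the same way, served as a mirror. They were closer to the BALB/c-only regions in width and fold, with median folds of 3.96 and 4.02 in the C57 libraries. Whether reads of both strains mapped equally well was not tested, so the 2 sets may not mirror each other in mapping. Neutrophil PU.1 was found at 34.4% of BALB/c-only and 50.0% of C57-only regions at the same widths (odds ratio 0.523, chi-square adjusted p = 6.95e-21). For macrophage PU.1 the shares were 45.8% and 60.0% (0.561, 1.09e-17), and for ImmGran PU.1 24.7% and 28.1% (0.869, 0.0601). Macrophage H3K27ac was found at 33.0% and 44.4% (0.633, 8.06e-11) and neutrophil H3K27ac at 17.5% and 22.0% (0.763, 0.0016). ImmGran H3K27ac ran the other way, with 24.0% of BALB/c-only and 19.6% of C57-only regions (1.33, 1.13 to 1.56, adjusted p = 0.000886, same chi-square test over 6 lists).

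The PU.1 differences in neutrophils and macrophages kept their direction and passed the threshold in every alternative run, including each left-out ATAC library. The acetylation differences were less firm. Macrophage H3K27ac missed the threshold without BALB/c ATAC replicate 2 (odds ratio 0.931). Neutrophil H3K27ac missed it without BALB/c ATAC replicate 2 (0.924), C57 ATAC replicate 1 (0.940) or C57 ATAC replicate 2 (0.912), and ImmGran H3K27ac without BALB/c ATAC replicate 1 (1.07). ImmGran H3K27ac turned to 0.877 when BALB/c ATAC peaks alone were held to a −log10 q of 3. ImmGran PU.1 moved past the threshold in both directions, to 1.18 without C57 ATAC replicate 1 (chi-square adjusted p = 0.00818) and to 0.684 and 0.768 without BALB/c ATAC replicates 1 and 2 (1.82e-13 and 5.16e-06).

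**Figure D4:**
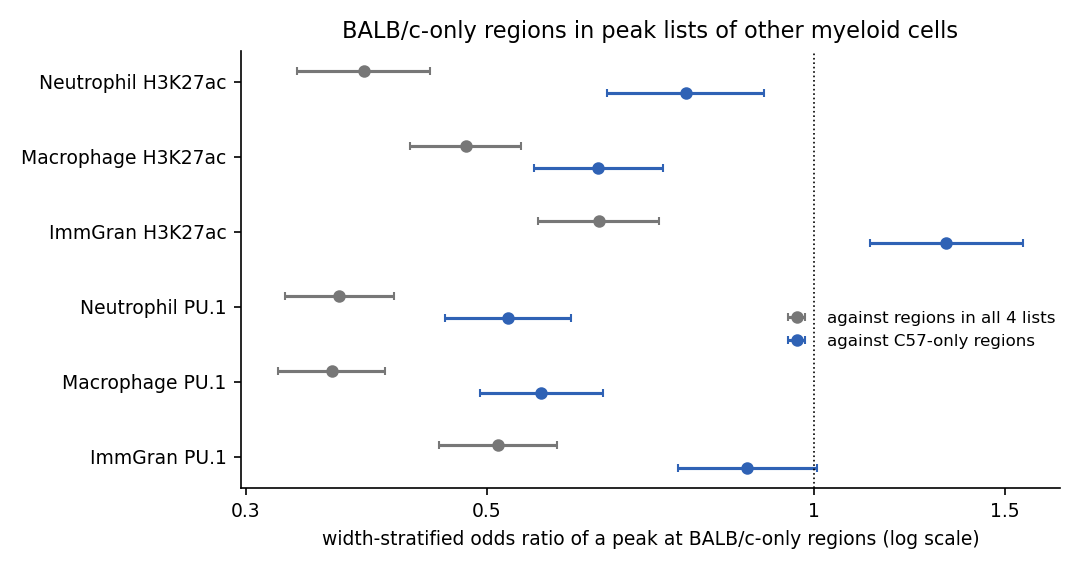
Odds ratio of a peak at BALB/c-only regions in each outside list, with 95% intervals on a log axis, against regions in all 4 lists (grey) and against C57-only regions (blue), over 5 width strata. All grey points lie between 0.360 and 0.634, and among the blue points ImmGran H3K27ac alone lies above 1, at 1.33.

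The members also differed with the strength of the open chromatin call. Of the 435 members whose lower BALB/c score was 10 to 16, 54.0% held outside H3K27ac, and of the 375 with a score of 30 to 216, 41.9%. For macrophage PU.1 the shares in these sets were 52.6% and 38.4%, and for neutrophil PU.1 39.1% and 28.0%. ImmGran PU.1 was found at 21.8% of the low and 31.2% of the high set. H3K27ac in both BALB/c and neither C57 library was found at 5.06% of the low and 15.5% of the high set, and H3K27ac in either C57 library at 30.6% and 18.4%. Median width was 417 bp in the low and 305 bp in the high set, and its part in these shares was not tested. The sets are cut by values that chose the members, so the shares are a description.

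BALB/c-only regions were spread over all autosomes, with shares of merged regions between 2.43% on chromosome 9 and 4.27% on chromosome 17. Over the autosomes together 1481 of 48328 merged regions were members (3.06%), and C57-only regions made up 5.16%. On the X chromosome 60 of 1090 were members (5.50%), and C57-only regions made up 4.40%. Chromosome X was the one placed chromosome where BALB/c-only regions outnumbered C57-only regions, by 60 to 48. The Y chromosome, with 7 merged regions, held no member. On sequence not placed on a chromosome 15 of 219 merged regions were members (6.85%), and C57-only regions made up 8.68%. The sex of the mice is not given in the sources used here.

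**Figure D5:**
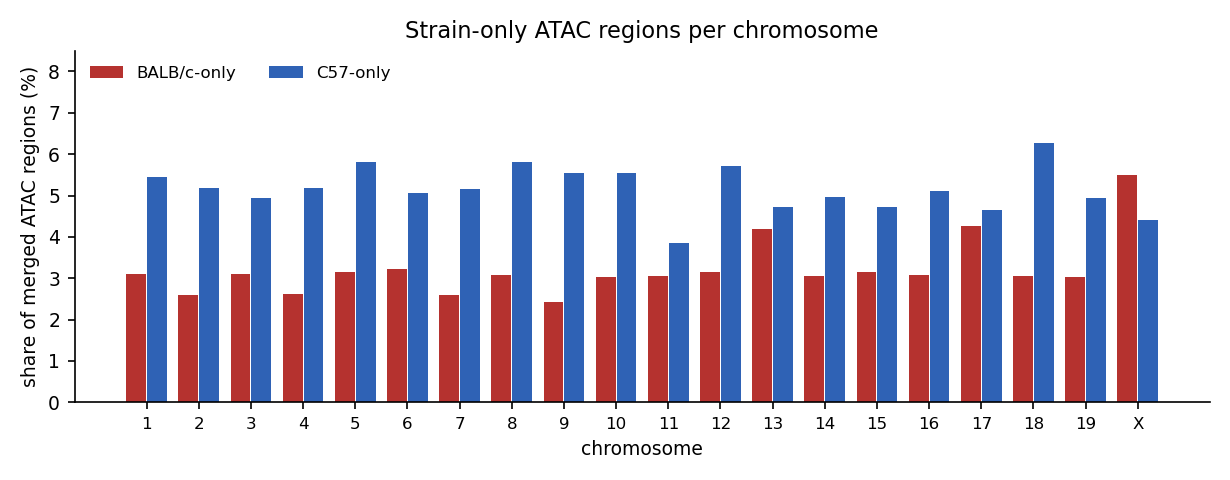
Share of merged ATAC regions (%) on each chromosome that were BALB/c-only (red) or C57-only (blue). Red bars stand below blue bars on all 19 autosomes and above on X, at 5.50% against 4.40%. The Y chromosome and unplaced sequence are not drawn.

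Part of the X chromosome excess lay in 1 place. The window from 47 to 48 Mb held 11 members among 18 merged regions, with no C57-only region and none in all 4 lists. They fell between positions 47903558 and 47973471, a span of 69914 bp, with ATAC folds from 3.45 to 4.78 in BALB/c replicate 1 and from 3.25 to 4.27 in replicate 2. H3K4me3 lay at 9 of the 11 in both libraries, with folds up to 6.64, where 33.7% of all merged regions held it. No H3K4me1 and no eosinophil PU.1 peak lay at any of the 11. H3K27ac was called in both BALB/c libraries at 0 of the 11, in 1 of the BALB/c libraries at 3 and in the C57 libraries at 0. ImmGran H3K27ac was called at 6, neutrophil H3K27ac at 3 and macrophage H3K27ac at 0. Over all merged regions the shares were 37.1%, 35.6% and 52.6%. ImmGran PU.1 was called at 0, neutrophil PU.1 at 4 and macrophage PU.1 at 1, where the shares were 35.2%, 53.8% and 65.0%. Without this window 49 of 1072 merged regions on X were members (4.57%), against 4.48% for C57-only regions.

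Members also lay near each other when counted over all chromosomes, the X window included. The merged region after a member was itself a member in 98 of 1539 cases (6.37%), where members make up 3.13% of all. For C57-only regions the next was C57-only in 6.99%, where they make up 5.16% of all. The longest run of neighbouring members had 6 regions, chr16:6128307-7456223, over 1327917 bp, with eosinophil PU.1 at 5 of them and H3K27ac in both BALB/c libraries at 2. A run of 5 regions, chrX:47955634-47973471, fell in the window described above. A run of 4, chrX:72989861-73004725, held outside H3K27ac at each region and no PU.1 or H3K4me3 in any. The nearest C57 ATAC peak was a median of 7451 bp away, with 129 members (8.29%) within 500 bp of one and 682 (43.8%) more than 10000 bp away.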

How the data were processed

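The authors deposited 1 peak list per ATAC and ChIP library, giving each peak a score, its fold over background and its −log10 q, and 1 table of read counts per RNA library. The deposited lists reach down to a −log10 q of 1 (PU.1 in eosinophils, neutrophils and ImmGran cells: 2), as tested on the files. The submitters' processing notes name Trim Galore 0.4.2, Bowtie2 2.3.4.1, Picard 1.89, bedtools 2.27.0, HOMER and mm9, with no roles stated. The peak caller is not given in the sources used here, nor whether reads of BALB/c cells were aligned to a genome with their variants. Per the labels, ChIP libraries were made by ChIPmentation. ATAC followed the Omni-ATAC procedure.

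Peaks were merged at 1 bp of overlap, and a mark counted at a region when a peak shared at least 1 bp with it. Regions are named by mm9 coordinates, counted from 1. Width-stratified comparisons used the Cochran-Mantel-Haenszel test with Mantel-Haenszel odds ratios and 95% intervals. Calls rest on an adjusted p under 0.05. Counts were divided by the library total (40306679 and 30465490) to give CPM. Regions are named in the text by rank. They were taken from the 5 highest lower ATAC scores, the 5 highest H3K27ac folds confined to BALB/c and the 3 highest in C57. Others came from the 3 highest for each PU.1 class, the 3 longest runs and members next to the limit. In the PU.1 classes the ranked regions on chromosome 18 are not named in the text. The X window was chosen after its values were seen. The members and lists were chosen with earlier results of these data known. The merging and the stratified test were tested on simulated data. Software was Python 3.11.15 with scipy 1.17.1, statsmodels 0.14.6, pandas 2.3.3, numpy 2.4.6 and matplotlib 3.10.9.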

Additional observations from a re-analysis of the deposited data

Results flagged for a closer look

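The ImmGran lists differed from the neutrophil and macrophage lists in how BALB/c-only regions compared with C57-only regions. To test this, regions that lay in 1 list of a pair and not in the other were taken, and the share in the ImmGran list was compared over 5 width strata (Cochran-Mantel-Haenszel chi-square test, Benjamini-Hochberg over 6 pairs). These tests were chosen after the values were seen. For H3K27ac, ImmGran cells held 225 of 349 BALB/c-only regions that differed from neutrophils (64.5%), against 45.4% of C57-only regions at the same widths, an odds ratio of 2.22 (1.67 to 2.94, chi-square adjusted p = 3.80e-08). Against macrophages the shares were 33.3% and 13.1%, an odds ratio of 3.22 (chi-square adjusted p = 1.64e-14).

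For PU.1, ImmGran cells held 110 of 370 BALB/c-only regions that differed from neutrophils (29.7%), against 11.2% of C57-only regions, an odds ratio of 3.54 (chi-square adjusted p = 1.64e-14). Against macrophages the shares were 17.2% and 5.22%, an odds ratio of 3.98 (chi-square adjusted p = 5.10e-14). Neutrophils and macrophages did not differ past the threshold in this way, with odds ratios of 1.16 for H3K27ac (0.874 to 1.54, chi-square adjusted p = 0.305) and 0.824 for PU.1 (0.619 to 1.10, adjusted p = 0.221). With mark peaks counted within 500 bp the PU.1 value passed it (0.710, chi-square adjusted p = 0.0217). Leaving out each ATAC library in turn gave 1.42 to 2.15 and 1.84 to 2.10 for the H3K27ac pairs with ImmGran cells, and 2.01 to 2.88 and 2.34 to 3.08 for the PU.1 pairs, all with adjusted p under 0.05. The lowest came without C57 ATAC replicate 2 for ImmGran against neutrophils (1.42 and 2.01) and without BALB/c ATAC replicate 2 for ImmGran against macrophages (1.84 and 2.34). With BALB/c ATAC peaks alone held to a −log10 q of 3 the PU.1 odds ratios were 12.2 and 10.7. The strain and the depth of the outside libraries cannot be told apart from cell type here.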

How the results depend on the processing

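The number of members depended on the calls: 375 with BALB/c peaks held to a −log10 q of 3, 1065 with all lists held to it, and 2576 to 4656 without 1 ATAC library. Against regions in all 4 lists, H3K27ac, eosinophil PU.1 and the 6 outside lists kept direction and threshold in every alternative run. Without width strata most of these odds ratios were lower, at 0.172 for BALB/c H3K27ac, 0.0578 for C57 H3K27ac and 0.204 for eosinophil PU.1. H3K4me3 was at 0.241. In neutrophils, macrophages and ImmGran cells H3K27ac was at 0.162, 0.174 and 0.216, and PU.1 at 0.248, 0.199 and 0.340. H3K27ac in both BALB/c and neither C57 library was higher, at 7.47. H3K4me3 missed the threshold within 500 bp (0.933), in either library (0.992), with 10 strata (0.928) and with 50 strata (0.978), turned with strata of width and score (1.24) and logistic regression (1.05), and ranged from 0.562 to 0.907 without 1 library, missing the threshold without either H3K4me3 library (0.907 and 0.906). H3K4me1 passed it with −log10 q of 3 in all lists (1.59) or in BALB/c (1.75), equal list lengths (1.15), overlap by a share of the peak (1.23), mark peaks of −log10 q 5 (2.50) and either library (1.13). It turned within 500 bp (0.998), without strata (0.896), with mean peak width (0.995), with width and score (0.965) and with logistic regression (0.824, adjusted p = 0.0109, Wald chi-square), and ranged from 0.937 to 1.16 without 1 library.

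Against C57-only regions, neutrophil H3K27ac missed the threshold with −log10 q of 3 (0.846), equal list lengths (0.907), within 500 bp (0.865) and without strata (0.864), and ranged from 0.646 to 0.940 without 1 library. Macrophage H3K27ac missed it with −log10 q of 3 (0.886) and ranged from 0.670 to 0.931. ImmGran H3K27ac turned with BALB/c peaks of −log10 q 3 (0.877) and ranged from 1.07 to 1.34. ImmGran PU.1 turned with −log10 q of 3 in all lists (1.19) or in BALB/c (1.02), passed the threshold with 10 strata (0.860), mean peak width (0.846) and 50 strata (0.855), and ranged from 0.684 to 1.18. For regions in 1 list of the neutrophil and macrophage H3K27ac pair, the odds ratio turned with −log10 q of 3 (0.926) and without BALB/c ATAC replicate 1 (0.892) or 2 (0.887). Other values that moved by over 1.5 times with the call kept included the following. Mark peaks of −log10 q 5 gave 0.335 for BALB/c H3K27ac, 0.0646 for C57 H3K27ac and 0.439 for H3K4me3. C57 H3K27ac was 0.310 with −log10 q of 3 in all ATAC lists and 0.361 in either library. With BALB/c ATAC peaks of −log10 q 3, neutrophil H3K27ac and PU.1 against C57-only regions were 0.448 and 0.336, and the strain difference was 1.75. With all ATAC lists held to 3, ImmGran against macrophage H3K27ac was 1.68 and ImmGran against neutrophil PU.1 was 6.41. The cause was not tested. Of the odds ratios, 354 of 384 under other settings and 103 of 118 without 1 library kept direction and side of the threshold.

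No label says that a replicate number marks a shared culture or day. Deviations of same-numbered H3K27ac libraries correlated at 0.120 over regions, and with 2 pairs this does not settle whether the numbers pair the libraries. With the replicate number as a block the strain difference was 0.99 and the smallest possible p of 0.5 was reached. The 50 strata and the set without the X window were chosen after seeing the data. Base composition and motifs were not run, since no mm9 genome was used here, and no gene is named for the same reason.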
